A study of Mus musculus with 13 samples.

Results

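The 10 genes described here code for enzymes of glycolysis and for the lactate dehydrogenase subunit that closes it: Hk2, Gpi1, Pfkl, Aldoa, Tpi1, Gapdh, Pgk1, Eno1, Pkm and Ldha. They were chosen by name, all 10 were found, and they are 10 of the 17280 genes in the authors' filtered count table. The cells were, by the study's methods, CD45 low, CD11b+ microglia of the hypothalamus (the labels say brain), sorted from wild type male C57BL/6J mice on control diet (normal chow, NC) or on a high-fat diet (HFD, 60% fat) and sequenced one by one with CEL-Seq2. The table of wells gives the HFD lengths 1_day, 3_days, 1_week (written 7_days on some plates), 4_weeks, 9_weeks and 16_weeks. Of 2496 wells on 13 plates, 1617 held at least 1500 transcripts and were kept. These were 722 wells on control diet, 161 after 1 day of HFD, 121 after 3 days, 172 after 1 week, 128 after 4 weeks, 82 after 9 weeks and 231 after 16 weeks. The names of wells on plates 4 to 13 carry 9, 14 or 24 weeks, and the table does not say that these are ages. On plate 13 the 3-day and 1-week wells carry 14 weeks and the 16-week wells 24, while of the 4 control replicates M15 and M16 carry 14 and M11 and M12 carry 24.

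The counts of cells that shared a replicate identifier, a diet length and a plate were added, which gave 68 sums of 7 to 76 cells from 44 replicates. The identifiers are not said to be mice, so p-values measure the spread between these sums. A sum held 22768 to 219146 transcripts, and levels are given as counts per 1000000 transcripts (CPM). One transcript was therefore worth 4.56 to 43.9 CPM. Control diet was present on 12 plates, and each HFD length shared 2 to 6 plates with it. Plate 5 held no control sum. The microglial genes marked these cells as labelled: P2ry12 was detected in 99.1% of cells, Tmem119 in 96.7% and Cx3cr1 in 99.8%, and no well had the same counts as another.

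Glycolysis splits glucose into pyruvate in the cytosol and yields ATP without oxygen. Lactate dehydrogenase then turns pyruvate into lactate and regenerates the NAD+ that the pathway consumes, or works in reverse on lactate taken up from outside. Microglia, the resident macrophages of the brain, are known to raise glycolysis when they are strongly activated, and many genes of the pathway are known targets of the hypoxia-inducible factor HIF, which binds DNA at sites with a short core.

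To show the regulatory sequence in front of genes with unlike levels, the 250 bases before a listed RefSeq start site are printed for the best detected member across all cells (Hk2), for the least detected (Pgk1), and for the 2 subunits of lactate dehydrogenase (Ldha and Ldhb, the first window listed for each). All are from GRCm38.p6, 5′ to 3′ on the strand of the gene, with ACGTG and its reverse complement CACGT in capitals. Those letters form the core of many HIF sites and overlap the E-box CACGTG.
Hk2, chr6:82774455-82774704, minus strand: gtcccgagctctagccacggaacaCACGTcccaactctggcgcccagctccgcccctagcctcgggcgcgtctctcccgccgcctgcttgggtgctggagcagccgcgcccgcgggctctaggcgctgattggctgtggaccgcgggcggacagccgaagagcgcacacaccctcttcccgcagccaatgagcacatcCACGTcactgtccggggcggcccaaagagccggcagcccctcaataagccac
Pgk1, chrX:106186850-106187099, plus strand: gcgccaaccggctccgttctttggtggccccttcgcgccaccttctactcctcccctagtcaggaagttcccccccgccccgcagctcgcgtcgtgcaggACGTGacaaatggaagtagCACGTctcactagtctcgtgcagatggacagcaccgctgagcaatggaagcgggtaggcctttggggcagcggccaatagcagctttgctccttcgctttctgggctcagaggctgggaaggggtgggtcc
Ldha, chr7:46845554-46845803, plus strand: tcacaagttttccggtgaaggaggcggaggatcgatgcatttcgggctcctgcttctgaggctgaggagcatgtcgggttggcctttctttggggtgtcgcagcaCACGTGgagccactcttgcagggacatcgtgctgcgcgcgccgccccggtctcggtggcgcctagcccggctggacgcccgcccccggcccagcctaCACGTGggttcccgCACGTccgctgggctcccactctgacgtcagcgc
Ldhb, chr6:142507958-142508207, minus strand: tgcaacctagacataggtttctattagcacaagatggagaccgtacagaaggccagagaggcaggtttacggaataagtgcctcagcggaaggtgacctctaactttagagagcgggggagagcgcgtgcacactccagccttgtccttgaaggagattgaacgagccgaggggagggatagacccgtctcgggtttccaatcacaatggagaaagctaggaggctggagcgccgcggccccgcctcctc
Hk2 and Pgk1 each held 2 such places, the first window of Ldha 3, and Ldhb 0. Counting overlapping matches as 1 place, 6 of the 16 windows of members (37.5%) held at least 1, beside 16.6% of the 32851 windows of all genes. By gene it was 5 of the 10 members, beside 18.5% of the 27025 genes with a window. Windows 2 and 3 of Aldoa overlap and hold the same place, which therefore counts in 2 of the 6 windows. The second window of Ldha held 0. A match describes the letters only, and Hk2 and Pgk1, which lay far apart in level, had the same number.

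Measured in the 25 control sums of plates 4 to 13, the members lay over a wide range of levels. CEL-Seq2 counts each transcript once, at its 3′ end, so that levels of different genes were compared without division by length. Positions of genes are those of GENCODE M21 on GRCm38. Gapdh, which oxidises glyceraldehyde phosphate (chromosome 6, 125161715 to 125166467, minus strand), was at 329 ± 108 CPM (SD, n = 25). Hk2, the hexokinase that traps glucose in the cell (chromosome 6, 82725025 to 82774454, minus strand), was at 282 ± 89.5 CPM. Aldoa, the aldolase that cleaves fructose bisphosphate (chromosome 7, 126795234 to 126800751, minus strand), was at 166 ± 73.4 CPM. Pkm, the pyruvate kinase of the last ATP-yielding step (chromosome 9, 59656368 to 59679375, plus strand), was at 152 ± 66.9 CPM. These 4 were the best detected.

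The other members were lower. Eno1, the enolase that makes phosphoenolpyruvate (chromosome 4, 150236721 to 150248879, plus strand), was at 116.5 ± 57.2 CPM. Ldha, the lactate dehydrogenase subunit common in glycolytic tissue (chromosome 7, 46841475 to 46855627, plus strand), was at 105 ± 52.5 CPM. Gpi1, the isomerase of glucose phosphate (chromosome 7, 34201330 to 34230336, minus strand), was at 86.6 ± 47.2 CPM. The order continued down through 3 genes near the limit of counting in a sum. Tpi1, which interconverts the triose phosphates (chromosome 6, 124810586 to 124814296, minus strand), was at 63.8 ± 38.9 CPM. Pfkl, the liver-type phosphofructokinase of the committed step (chromosome 10, 77986947 to 78010083, minus strand), was at 35.7 ± 23.0 CPM. Pgk1, which makes the first ATP of the pathway (chromosome X, 106187100 to 106203699, plus strand), was at 22.9 ± 22.7 CPM. Pgk1 was at 0 in 25 of the 68 sums, Pfkl in 12, Tpi1 in 4, Gpi1 and Gapdh in 2 each and Ldha in 1.

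Of neighbours in this order, only Hk2 and Aldoa differed by more than the SD of the higher gene, by 116 CPM, and Hk2 was the higher in 20 of 25 sums. Gapdh was above Hk2 in 17 of 25 sums, Eno1 above Ldha in 12 and Pfkl above Pgk1 in 12, so these neighbours could not be ordered. Much of the spread between sums was of the size that counting alone gives. Hk2 had a coefficient of variation of 31.8% against 26.3% from counting, Ldha 50.0% against 43.1%, and Pfkl 64.5% against 73.9%. The summed level of the 10 members had 19.8% against 12.0%.

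**Figure D1:**
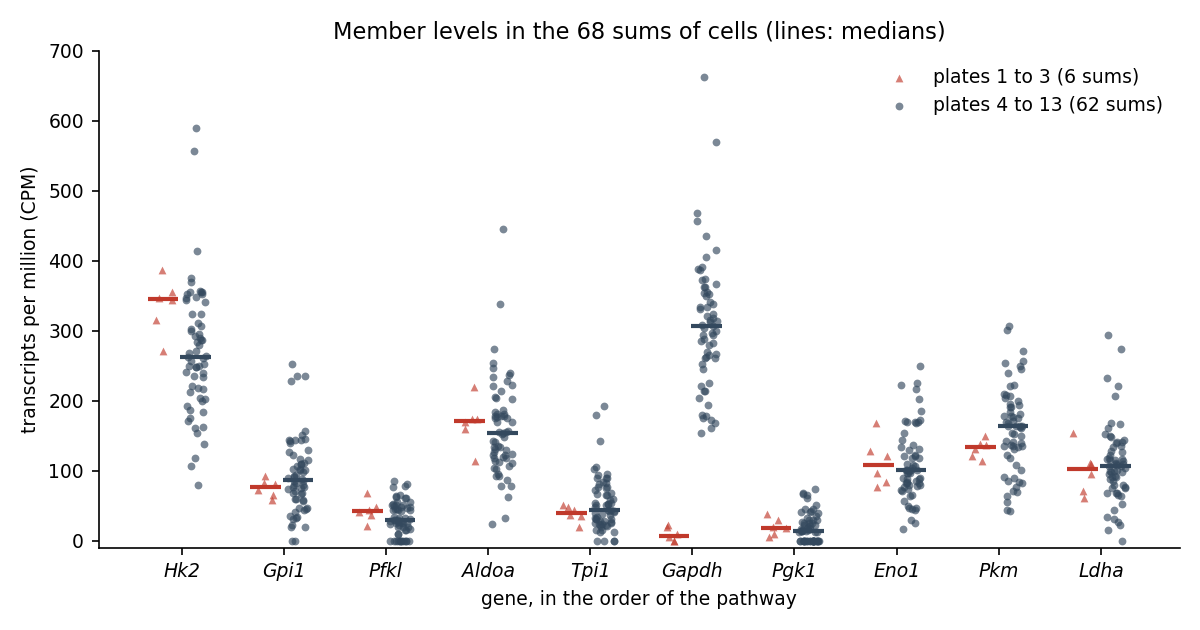
Level of each member (x axis, in the order of the pathway) in CPM (y axis) in the 68 sums, with triangles for plates 1 to 3, circles for plates 4 to 13 and lines for medians. Gapdh lay at 0 to 22.8 CPM on plates 1 to 3 and at 153 to 663 CPM on plates 4 to 13, while the ranges of the other 9 members overlapped.

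Gapdh stood apart by plate and not by diet. On plates 1, 2 and 3 it had 5, 2 and 5 transcripts, counted by their unique molecular identifiers (UMIs), in 149, 140 and 133 cells, or 12.5, 5.30 and 11.7 CPM, and was detected in 1.43% to 3.76% of cells. On plates 4 to 13 it had 227 to 385 CPM per plate and was detected in 42.9% to 68.6% of cells. Hk2, by contrast, ranged from 271 to 386 CPM in the sums of plates 1 to 3 and from 79.5 to 590 CPM in the others.

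Of 1854 genes with at least 100 CPM on plates 4 to 13, 36 had less than 10% of that level on plates 1 to 3. Of these, 23 were ribosomal protein genes, and of the 14 glycolytic and related genes that reached this level Gapdh was the only one among the 36. Its last 300 transcript bases matched (at least 95% identity over 100 bases) those of 130 other GENCODE M21 genes, 128 of them pseudogenes. That was the highest number of pseudogenes among 1776 genes searched, the next being 56, and the other members matched 0 to 6 other genes. A matching pseudogene was found for 25 of the 34 low genes searched (73.5%) and for 180 of all 1776 (10.1%). The plate tables list 20858 genes on 3 plates, 22063 on 4 and 27462 on 6, plates 1 to 3 being those with the fewest. Whether read assignment to copies set the Gapdh values was not tested. Pooled over plates, Gapdh thus looks low after 4 or 16 weeks, the HFD lengths sorted on plates 1 to 3. Control cells were on these plates too, which lowers the pooled Gapdh level on control diet. The fits and the differences in summed level below were therefore made within plates. Shares of cells, isozyme shares and marker levels by length are pooled over plates and given as descriptions.

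The next question was whether HFD of any length shifted the transcripts of these enzymes. No member was called at any length: in 1 edgeR quasi-likelihood fit of all lengths with plate as a term, 0 of the 8 members that passed the filter on low counts had an adjusted p under 0.05. The smallest adjusted p among their 48 values (8 members at 6 lengths) was 0.868. Among all 3189 genes tested, the share called was 0% at 1 day, 0% at 3 days, 0% at 1 week, 0.0941% at 4 weeks, 0% at 9 weeks and 0.0314% at 16 weeks. The F test for any difference among lengths also called 0 of the 8 members and 0.0627% of all genes. At an unadjusted p under 0.05 there were 4 of the 48 values (8.33%), where 878 of 19134 values of all genes were (4.59%). DESeq2 called 0 of its 60 member values and gave 4 under an unadjusted 0.05, and limma voom with the replicate as a random effect called 0 and gave 4. The intervals were wide. The narrowest spanned 0.67 on the log2 scale (Hk2 at 16 weeks, from −0.30 to 0.37), and the widest, for Tpi1 at 4 weeks, 2.39.

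**Figure D2:**
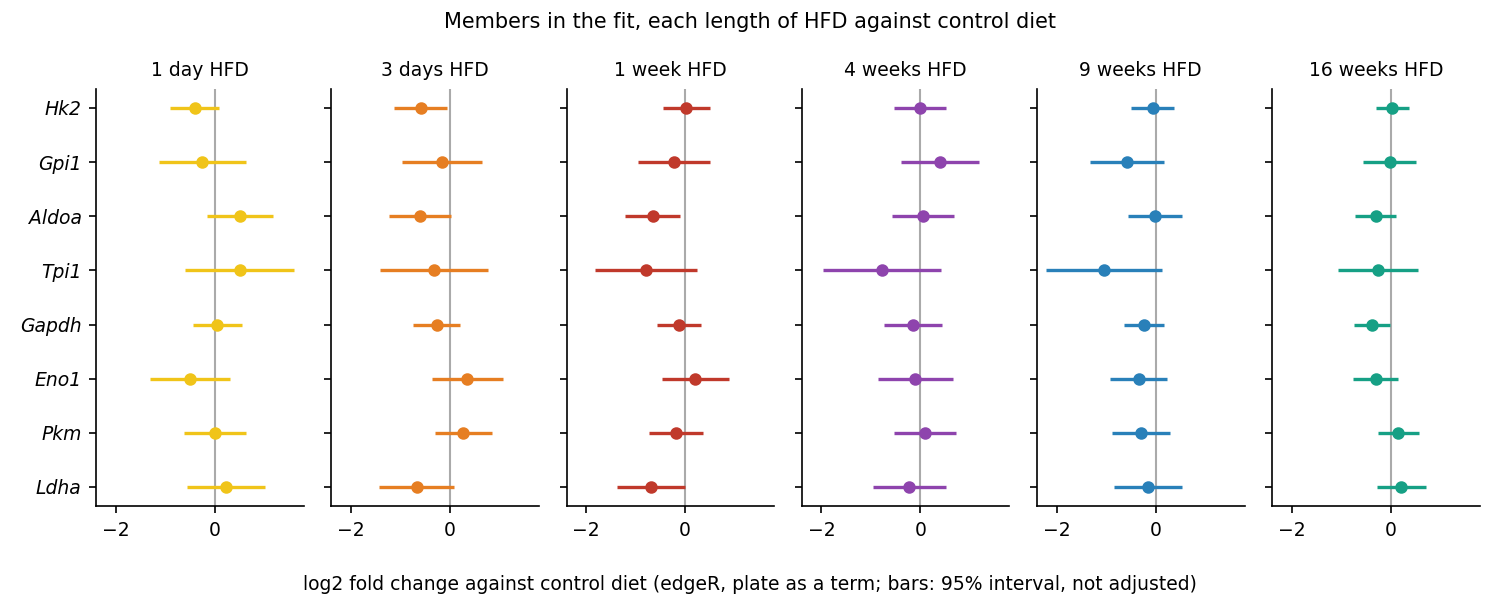
log2 fold change against control diet (x axis) of the 8 members in the fit (y axis), in 1 panel for each HFD length, with points for the edgeR estimates and bars for their unadjusted 95% intervals. The bars of Hk2 at 3 days, Aldoa and Ldha at 1 week and Gapdh at 16 weeks did not reach 0, and no value passed the adjusted threshold.

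After 1 day of HFD, Hk2 was the member furthest from control relative to its error, with a log2 fold change of −0.41 ± 0.25 (SE, p = 0.11 by edgeR). It was below the control mean of the plate in 4 of 6 sums. Aldoa was above and Eno1 below control by similar amounts, and none of these genes differed beyond the spread of the sums. On plate 6, Aldoa was at 111, 153 and 62.5 CPM on control diet and at 156, 118 and 237 CPM on HFD. On plate 8 it was at 123, 123 and 92.0 CPM on control diet and at 77.9, 234 and 114 CPM on HFD. The HFD sums reached higher than the control sums on both plates, but the ranges overlapped. The log2 fold change was 0.52 ± 0.34 (SE) for Aldoa and −0.50 ± 0.41 for Eno1, both with an adjusted p of 1.0 by edgeR. Without the 1-day replicate M14 of plate 8, Aldoa was at 0.30 and Eno1 at −0.73. Without M16 of the same plate, Eno1 was at −0.29. The median over the 8 members was 0.03, and over all genes 0.01.

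After 3 days, the length the study centred on, Hk2 was the member furthest below control relative to its error. On plate 4, Hk2 was at 235 CPM in the control sum, of 7 cells, and at 248 and 161 CPM on HFD. On plate 13 it was at 257, 250, 203 and 248 CPM on control diet and at 163 and 79.5 CPM on HFD. Both HFD sums were below all 4 control sums on plate 13, among them those of M15 and M16 (203 and 248 CPM), whose wells carry the same weeks, whereas on plate 4 they lay on either side of the control. The fitted log2 fold change was −0.59 ± 0.27, or 0.66-fold, with p = 0.031 and an adjusted p of 0.979 by edgeR, and the HFD sums of plate 5 entered through the other lengths sorted there. With plate 13 split by the weeks in its well names, an alternative added after seeing the data, it was −0.53 ± 0.30 (p = 0.075 by edgeR). It was −0.72 ± 0.29 without plates 1 to 3, −0.71 ± 0.27 without cells with markers of other types and −0.77 ± 0.27 without those with MHC class II transcripts (p = 0.016, 0.0081 and 0.0053), and not called in any of these fits.

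Aldoa and Ldha had log2 fold changes of −0.61 ± 0.31 and −0.67 ± 0.38 at 3 days. Aldoa was below the control mean of the plate in 4 of 4 sums and Ldha in 2 of 4. Without the control replicate of plate 7, a plate with no 3-day sum, Aldoa was at −0.36. Pkm was above it in 4 of 4 sums on the shared plates, by 0.27 ± 0.29, and Eno1 in 3 of 4, by 0.35 ± 0.36. Without the 3-day replicate M17 of plate 13 these were 0.04 for Pkm and −0.08 for Eno1. The adjusted p was 0.987 by edgeR for each of these 4 members. The median over the 8 members was −0.30 and over all genes 0.02. The summed level was 1207 CPM in the control sum of plate 4 and 1280 and 1012 CPM on HFD. On plate 13 it was 1333, 1248, 1218 and 1615 CPM on control diet and 1708 and 923 CPM on HFD. The 2 HFD sums of plate 13 lay outside the control range on opposite sides.

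After 1 week, Aldoa and Ldha were the members furthest below control relative to their error, and Tpi1 had the lowest value, −0.80 ± 0.52 on the log2 scale. Aldoa was at 445 CPM in the control sum of plate 7, the highest of all 68 sums, and at 143 CPM in the HFD sum beside it. On plate 9 it was at 155 CPM on control diet and 179 CPM on HFD, on plate 4 at 134 CPM against 126 and 175 CPM, and on plate 13 at 124 to 214 CPM against 129 CPM. Only plate 7 therefore showed a wide gap. The log2 fold change was −0.66 ± 0.28 (p = 0.020, adjusted p = 1.00 by edgeR), and −0.21 with the control replicate of plate 7 left out. For any difference among lengths, Aldoa had the smallest p of the members, 0.034, with an adjusted p of 0.889 by edgeR.

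Ldha at 1 week was at 126 and 123 CPM on plate 4, where the control sum had 33.5 CPM. It was at 95.4 CPM against 153 CPM on plate 7 and at 65 CPM against 118 CPM on plate 9. On plate 13 the HFD sum, of 12 cells, held 0 Ldha transcripts, which allows up to 3, beside 76.1 to 207 CPM on control diet. The direction thus differed between plate 4 and the other 3 plates. The log2 fold change was −0.69 ± 0.34 (p = 0.047, adjusted p = 1.00 by edgeR). Of the 8 members, 2 had values above 0 and 6 below, with a median of −0.20 beside −0.01 for all genes.

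After 4 weeks the members were spread around control. Gpi1 was above it in 3 of 3 sums on shared plates, at 92.7 CPM against 58.1 CPM on plate 1 and at 145 and 235 CPM against 101 CPM on plate 4. Its log2 fold change was 0.40 ± 0.40, and that of Tpi1, the lowest, −0.77 ± 0.60, each with an adjusted p of 0.996 by edgeR. With 1 replicate left out, Gpi1 ranged from 0.19 (without M21) to 0.60 (without M20). Tpi1 then ranged from −1.28 (without L2) to −0.29 (without M20). Gpi1 was at 1238 CPM in the 2 neutrophil-marked cells, 472.5 CPM in the 16 monocyte-marked cells, 318 CPM in the 19 cells with border-associated macrophage markers and 133 CPM in the 48 oligodendrocyte-marked cells, beside 84.2 CPM in unmarked cells, and lymphocyte-, neuron- and endothelial-marked cells had 49.0 to 78.0 CPM, from 1 to 3 UMIs. In MHC class II cells it was at 174 CPM on plate 4 and 392.1 CPM on plate 5, beside 111 and 132 CPM in the others. The neutrophil and MHC class II lists had their highest sums at 4 weeks. Border-associated macrophage markers had theirs at 3 days (423 CPM, against 314 CPM at 4 weeks). Monocyte markers had theirs at 1 week (1088 CPM, against 431 CPM at 4 weeks). By median these lists were all highest at 4 weeks, border-associated macrophage markers at 120.5 CPM against 23.8 CPM on control diet. Gpi1 was at 0.27 ± 0.45 without cells with markers of other types and at 0.66 ± 0.43 without those with MHC class II transcripts. The summed level was 968 CPM on HFD and 1007 CPM on control diet on plate 1, and 1482 and 1722 CPM against 1207 CPM on plate 4. On plate 5, without control, the same 2 replicates gave 936 and 1973 CPM, a wider gap than that between diets on plate 4. This length shared the fewest control replicates, 2.

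After 9 weeks all 8 members in the fit had values below 0, from −1.05 for Tpi1 to −0.01 for Aldoa. The 8 values come from the same 6 HFD sums, of 2 replicates, and are not independent. Without replicate M8, Gpi1 and Ldha were at 0.12 and 0.26, and without the other, M7, Aldoa and Hk2 were at 0.13 and 0.05 and Gpi1 at −1.70. Their median was −0.26, beside −0.01 for all genes. Tpi1 had 8 transcripts in 310144 on HFD and 43 in 761886 on control diet over plates 10 to 12. In CPM it was at 21.3 and 39.2 on plate 10, 30.6 and 15 on plate 11 and 28 and 22.5 on plate 12 on HFD. The control sums ranged from 52.3 to 76.3, from 32.7 to 90.3 and from 20.1 to 180 CPM on the same plates. The groups overlapped on plate 12 alone, and 6 of 6 HFD sums were below the control mean of their plate. The log2 fold change of −1.05 ± 0.59 had p = 0.080 and an adjusted p of 0.868 by edgeR.

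After 16 weeks, Gapdh was below control by −0.38 ± 0.19 on the log2 scale (p = 0.046, adjusted p = 0.989 by edgeR), and 8 of 10 HFD sums were below the control mean of their plate. Of these 8, 2 are the HFD sums of plates 2 and 3, which held 0 Gapdh transcripts beside 2 and 5 in the control sums. Without plates 1 to 3, an alternative chosen after seeing the data, the value was −0.30 ± 0.18 (p = 0.10), and with plate 13 split by weeks −0.28 ± 0.19 (p = 0.14). On plate 10, Gapdh was at 267 and 416 CPM on HFD and 178 to 356 CPM on control diet, and on plate 11 at 341 and 391 CPM against 294 to 468 CPM. On plate 12 it was at 173 and 221 CPM against 261 to 387 CPM, and on plate 13 at 176 and 322 CPM against 214 to 663 CPM. Of plates 10 to 13, the groups were separate on plate 12 only. Hk2 was at 0.03 ± 0.17 and Ldha at 0.21 ± 0.25 on the log2 scale, and the members had a median of −0.14 beside −0.01 for all genes. Without the 16-week replicate M5 of plates 10 to 12, Hk2 was at 0.23 and Ldha at 0.08. Without M6 of the same plates, Hk2 was at −0.12.

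The summed level of the members overlapped between control diet and HFD over all plates, with some HFD sums outside the control range of their plate. The level of the 10 members together ranged from 855 to 2000 CPM in the 28 control sums and from 835 to 1973 CPM in the 40 HFD sums. On the scale of log2(CPM + 10), the mean difference from control over shared plates was −0.02 at 1 day (2 plates), −0.09 at 3 days (2 plates), −0.23 at 1 week (4 plates), 0.17 at 4 weeks (2 plates), −0.22 at 9 weeks (3 plates) and −0.10 at 16 weeks (6 plates). Within a plate and a diet a single sum had a residual SD of 0.27, and the difference varied between plates with an SD of 0.32 at 1 week, 0.14 at 9 weeks and 0.20 at 16 weeks. No p is given, because the members were chosen with earlier results known. The sum was lower on HFD on 1 of 2 plates at 1 day, 2 of 2 at 3 days, 3 of 4 at 1 week, 1 of 2 at 4 weeks, 3 of 3 at 9 weeks and 4 of 6 at 16 weeks. The 3 plates at 9 weeks held the same 2 HFD and 4 control replicates, so they are not independent. At 16 weeks, plates 2 and 3 shared replicates, as did plates 10 to 12. On plate 12 both 9-week sums, 1147 and 1034 CPM, were below the control range of 1286 to 1650 CPM, while on plates 10 and 11 they lay inside it. Without Gapdh the differences were −0.05, 0.01, −0.21, 0.35, −0.23 and −0.06 in the same order, so that 3 days and 4 weeks moved most.

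**Figure D3:**
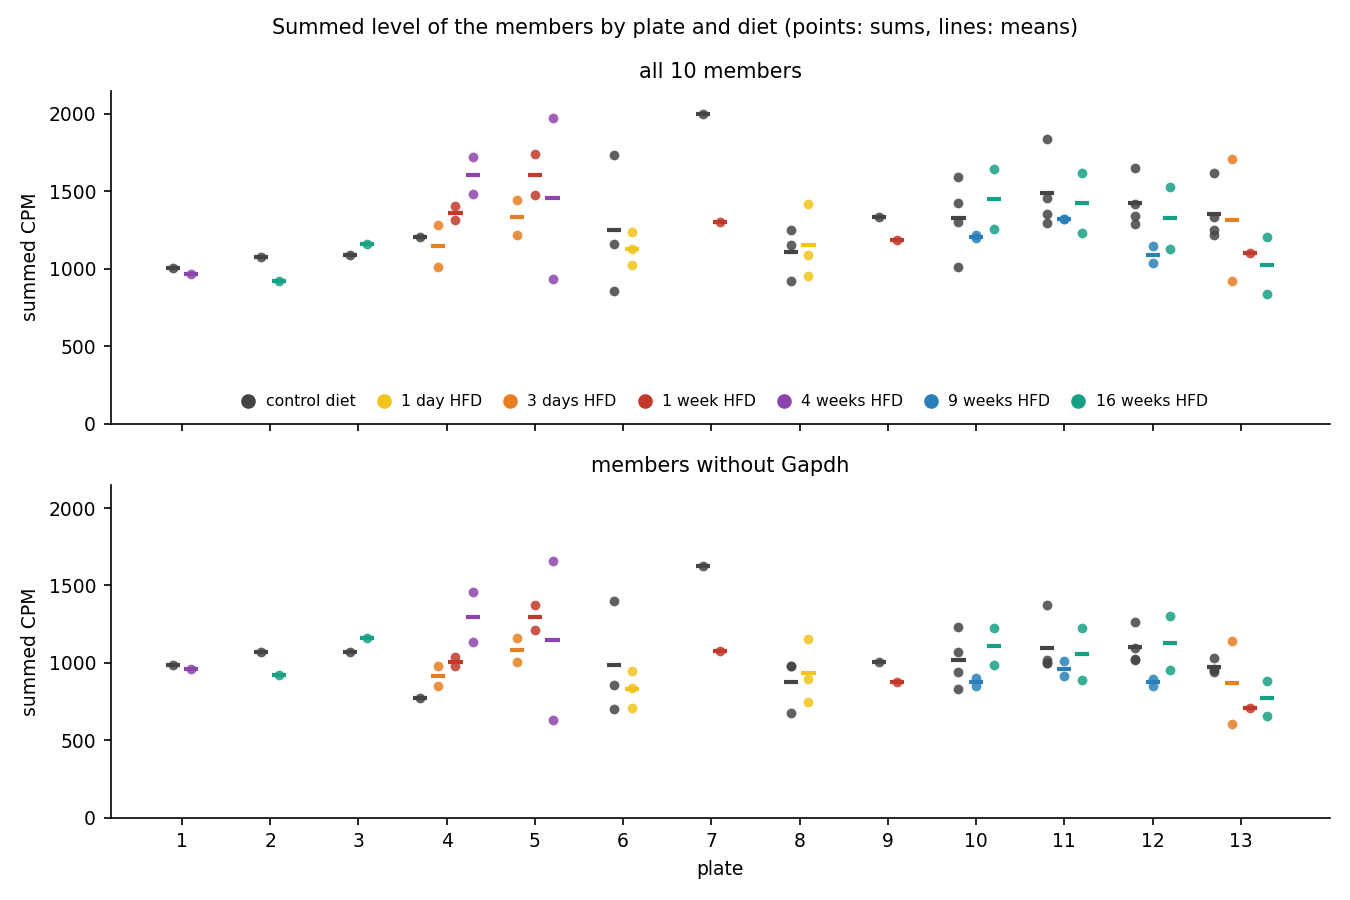
Summed level of the 10 members (top) and of the 9 without Gapdh (bottom) in CPM (y axis) by plate (x axis), with a point for each sum, a line for each mean and a colour for each diet. The HFD sums ranged from 835 to 1973 CPM and the control sums from 855 to 2000 CPM, and plates 1 to 3, where Gapdh was nearly absent, had 920 to 1159 CPM in the top panel.

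Pfkl and Pgk1 did not pass the filter on low counts and were compared by a two-sided exact permutation of the diets among the sums of each plate, in 12 comparisons adjusted together. None of the 12 was called or had an unadjusted p under 0.05, by sums or with whole replicates permuted (an alternative added after seeing the data), and the smallest adjusted p was 0.641. Pgk1 had 30.8 CPM on HFD and 9.63 CPM on control diet at 3 days (exact permutation, p = 0.11), and 14 and 30.2 CPM at 9 weeks (p = 0.15). Pfkl had 21.8 CPM on HFD and 35.5 CPM on control diet at 9 weeks (p = 0.16). Some comparisons could not reach 0.05: the smallest possible p was 0.17 for both genes at 4 weeks and 0.0667 for Pfkl at 3 days, and with replicates permuted 0.0667 for both genes at 9 weeks.

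The members were also set beside 79 other genes of 7 related lists, of which 66 were in the filtered table and 15 passed the filter. None of the 15 passed the adjusted threshold at any length by edgeR, with 2 of 90 values under an unadjusted 0.05 and a smallest adjusted p of 0.723. Both were at 9 weeks: Pdk1, the kinase that switches pyruvate dehydrogenase off, was at −1.06 ± 0.37 (lower in 5 of 6 sums), and Pfkfb4, named after its values were seen, was at 0.75 ± 0.37 (higher in 4 of 6). Of the other isozymes, 2 of 17 were tested. Ldhb was below control at all 6 lengths, from −0.40 ± 0.25 at 3 days to −0.03 ± 0.17 at 16 weeks. These 6 values come from 1 fit that shares control sums and are not independent. The F test for any difference among lengths gave p = 0.38 for Ldhb. Hk3 ranged from −0.48 to 0.26. Of the transport genes, 2 of 10 were tested. Slc2a5, a fructose transporter that marks microglia, was above control in 4 of 4 sums at 3 days (0.37 ± 0.22) and 5 of 5 at 1 week (0.36 ± 0.20), and below it in 9 of 10 at 16 weeks (−0.23 ± 0.15). Bsg, the partner of the lactate transporters, ranged from −0.17 to 0.19.

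Of the regulators, 5 of 16 were tested. Pfkfb3, which makes the activator of phosphofructokinase, reached 0.35 ± 0.35 at 3 days, and Mlxip, a glucose-sensing transcription factor, from −0.75 at 1 week to 0.20. Of the genes that bring pyruvate into mitochondria, 1 of 14 was tested, Pdk1, and Pdhb, a pyruvate dehydrogenase subunit at 62 CPM, was not. Of the pentose phosphate genes, 5 of 7 were tested. Pgd, a dehydrogenase of its oxidative branch, reached 0.65 ± 0.36 at 4 weeks, and Taldo1, the transaldolase, 0.37 ± 0.39. None of the gluconeogenesis or glycogen genes passed the filter. Pck2, at 60.7 CPM, and G6pc3, at 46.4 CPM, were the best detected of the former, and Gbe1, the glycogen branching enzyme, was at 34.4 CPM.

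Several steps of the pathway have more than 1 isozyme, and the UMIs show which these microglia transcribed. Hk2 made up 63.3% of hexokinase UMIs (exact binomial 95% interval 61.3% to 65.2%), Hk3 30.4% and Hk1, the hexokinase common in brain tissue, 6.30%. Hk2 led in 39 of 44 replicates. Pfkl made up 75.0% of phosphofructokinase UMIs, but of 248 in all. Eno1 made up 77.4% of enolase UMIs and led in 42 of 44 replicates, with the muscle form Eno3 at 20.3% and the neuronal form Eno2 at 2.29%. Intervals cover counting error only.

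Among the lactate dehydrogenase subunits the order was the other way. Ldhb, the subunit common in tissues that oxidise lactate, made up 68.9% of the 1789 UMIs (66.7% to 71.0%), and Ldha 31.1%. Ldhb led in 42 of 44 replicates, and Ldha led in 0, with a share of 0% to 50.0% and a median of 31.4%. By length the share of Ldha was 29.2% on control diet, 39.8% at 1 day, 32.2% at 3 days, 29.5% at 1 week, 38.6% at 4 weeks, 26.6% at 9 weeks and 31.7% at 16 weeks. These pooled shares were not compared by a test. By the match of transcript ends used for Gapdh, Ldha had 6 pseudogenes and Ldhb 1. Whether read assignment to copies set their shares was not tested. Slc2a5 made up 85.7% of the UMIs of 5 sugar transporter genes and led in 44 of 44 replicates, with Slc2a1, the transporter of the blood-brain barrier, at 4.58%.

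**Figure D4:**
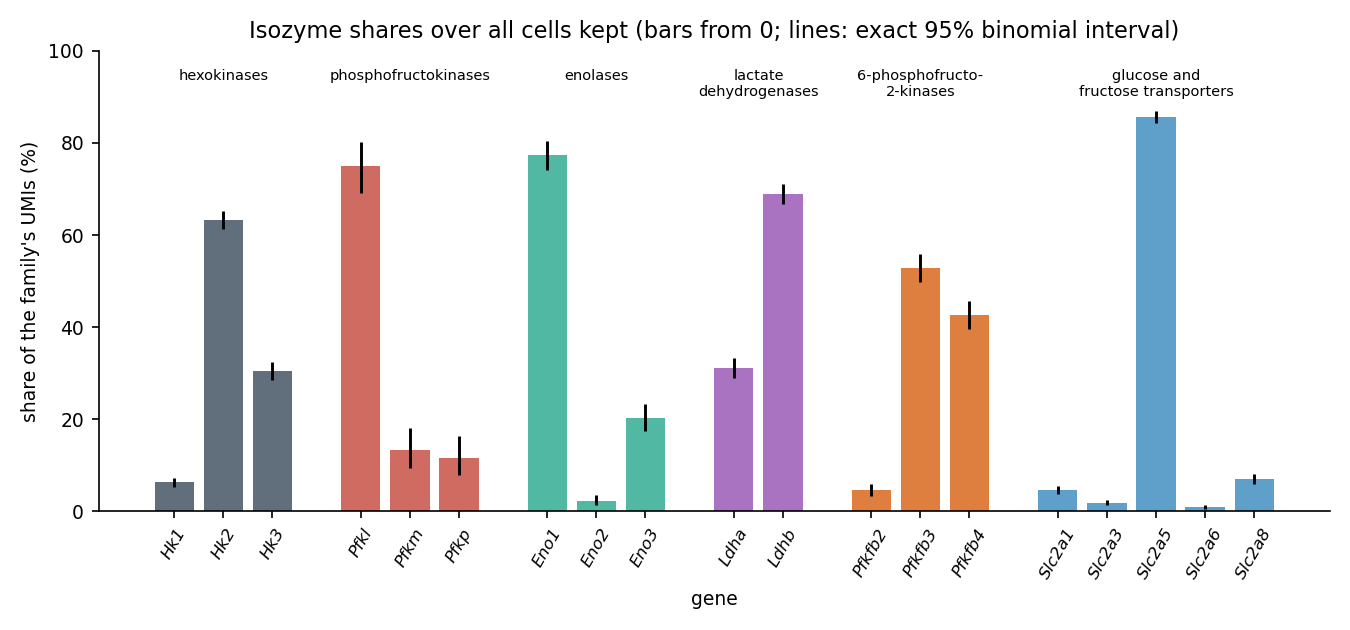
Share of each isozyme in the UMIs of its family (y axis, percent) over all 1617 cells, with bars from 0 and lines for exact 95% binomial intervals, by gene (x axis). Hk2, Pfkl, Eno1 and Slc2a5 held the largest share of their families, whereas Ldha, at 31.1%, was below Ldhb, at 68.9%.

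In single cells the members were sparse. Thinned to 1500 UMIs, a cell held 1.8 UMIs of the 10 members on average, from 0 in 313 cells (19.4%) to 16 in 1. The variance was 1.35 times the mean, and 1.02 (Pgk1) to 1.32 (Gapdh) times for single members. Across the 1617 cells, correlations between pairs of members lay between −0.06 and 0.09 (45 pairs), which at this depth is no finding. Hk2 had a UMI in 33.8% of thinned cells, Ldha in 12.2% and Pgk1 in 2.54%, beside 1.18% for Snap25 and 1.30% for Stmn2, neuronal genes that microglia should lack, in the same cells. Hk2 had a UMI in 34.2% of control cells, and in 26.7% at 1 day, 23.1% at 3 days, 33.1% at 1 week, 43.8% at 4 weeks, 37.8% at 9 weeks and 36.8% at 16 weeks, with plates not matched. Without thinning it was in 52.1% of control cells, 38.5% at 1 day, 44.6% at 3 days and 56.4% to 64.8% at the longer lengths. At least 1 member was detected in 82.5% of control cells (SD 9.45 over sums, 93.6% without thinning). The share was 77.6% at 1 day, 76.0% at 3 days, 82.6% at 1 week, 79.7% at 4 weeks, 82.9% at 9 weeks and 77.5% at 16 weeks. These shares are pooled over plates and were not tested. They count Gapdh, which was nearly absent on plates 1 to 3, and plate 1 gave 76 of the 128 cells at 4 weeks and plates 2 and 3 gave 66 and 67 of the 231 at 16 weeks. Gapdh had a UMI in 10.9% and 13.9% of cells at these lengths and in 25.6% of control cells.

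Few cells carried markers of another type, and their member levels are given as a description. Of the markers listed, 6 of 7 of border-associated macrophages, 4 of 6 of monocytes and 1 of 6 of neutrophils were in the table. The 1527 cells under 3 UMIs of every other marker list had 1258 CPM of the 10 members (counting interval 1227 to 1291), beside 1272 in all cells. The 19 cells with border-associated macrophage markers had 1570 CPM, 16 with monocyte markers 2035 CPM, and 2 with neutrophil markers 4763 CPM (3535 to 6279), while the 48 with oligodendrocyte markers had 1155 CPM (1019 to 1305). The 2 neutrophil-marked cells came from 1 replicate. On plate 5, cells with at least 5 MHC class II UMIs had 1978 CPM and the others 1427 CPM, and on plate 4 1369 and 1317 CPM. By length, MHC class II transcripts reached 10960 CPM in a sum at 3 days, 9827 at 1 week, 20070 at 4 weeks and 1615 at 16 weeks, and at most 715 CPM on control diet. Neutrophil markers reached 12950 CPM in a 4-week sum and were at 0 in every control sum. Monocyte markers reached 669 CPM at 3 days, 1088 at 1 week, 431 at 4 weeks and 243 at 16 weeks, and at most 60.3 CPM on control diet. Plates 4 and 5 held sums of 3 days, 1 week and 4 weeks, and as control only 1 sum of 7 cells, on plate 4. Marker levels were not matched by plate, so diet and plate cannot be told apart in them. Immediate early genes, which rise during tissue dissociation, had medians of 770 CPM on control diet, 928 at 1 day, 362 at 3 days, 492 at 1 week, 327 at 4 weeks, 428 at 9 weeks and 413 at 16 weeks. The part of these transcripts in the member values was not tested beyond leaving cells out. Leaving out the cells with other markers, or those with MHC class II, again gave 0 called members.

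Last, the genes outside the lists that varied most like the summed members were sought. Over the 68 sums, with the plate mean removed from log2(CPM + 10), the highest correlations among 1853 genes were those of Arpc2 (r = 0.41), an actin branching subunit, Tax1bp1 (0.41), an autophagy adaptor, Akirin2 (0.41), Myh9 (0.40), a myosin heavy chain, and Hspa8 (0.40), a constitutive chaperone. The sums share libraries and depth, and 1 in 100 of these genes had an r of at least 0.33, so these are descriptions with no p. Between the members themselves, the correlation of a member with the sum of the others went from −0.05 (Pfkl) to 0.36 (Pgk1), and was 0.11 for Hk2.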

How the data were processed

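Single microglia were sorted into 192-well plates, 1 cell to a well, and sequenced with CEL-Seq2, which tags each transcript with a unique molecular identifier (UMI). The authors deposited a table of estimated counts for each of 13 plates, corrected for chance repeats among 4096 UMI tags and therefore not whole, together with a table of wells and a filtered table that was used here for its gene names only. The submitters' processing notes name FastQC, STAR and featureCounts and the build mm10. The treatment label of every plate gives 3 days of HFD, and the diet lengths were read from the table of wells. Wells with at least 1500 transcripts were kept, no doublet caller was run on singly sorted cells, and estimated counts were summed by replicate identifier, diet length and plate and rounded to whole numbers. Sums of fewer than 5 cells (1 sum) were left out. Wells written 7_days were merged with 1_week, and a fit with plate 13 split by the weeks in its well names was an alternative added after seeing the data.

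The sums were fitted in edgeR 4.0.16 (R 4.3.3), with TMM scaling, its filter on low counts, a quasi-likelihood test with diet length and plate as terms, and Benjamini-Hochberg adjustment over all genes tested at a threshold of 0.05. The fit was also run on simulated counts, drawn independently for each sum. That run cannot check the effect of replicates that gave sums on several plates. DESeq2 1.42.0 and limma 3.58.1 (voom) were alternatives. Residual degrees of freedom are overstated, since 16 of the 44 replicates gave a sum on each of several plates. Levels on a log scale used log2(CPM + 10). Members that failed the filter were compared by an exact permutation test (scipy 1.17.1). Transcript ends were compared with blastn 2.17.0, and gene positions are those of GENCODE M21 on GRCm38. For single cells each cell was thinned to 1500 UMIs. Intervals and floors cover counting error only.

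The genes named were the 10 members, the 2 genes of highest CPM in each other list (1 of which is not reported here), and the 5 genes whose pattern was most like the summed members. Other isozymes of the families compared, Pfkfb4, the neuronal genes and the microglial markers are named outside this rule. The members and lists were chosen with earlier results of these data known.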

Additional observations from a re-analysis of the deposited data

Results flagged for a closer look

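In groups of 4 to 10 replicates, the highest or lowest replicate was compared with the others for each member and for the summed level, which made 44 tests, and 1 replicate stood apart. Pkm was at 64.69 CPM in the 1-week replicate M13 of plate 13, a sum of 12 cells and 30919 transcripts, while the other 4 replicates of that length had 164.1 to 190.9 CPM (n = 5). At that depth the value stands for 2 transcripts. Chance gives such a gap in about 1 group in 20.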

How the results depend on the processing

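No member passed the adjusted threshold under any alternative run, whether another test, scaling, filter, unit of summation, well minimum or choice of cells, or with any 1 of the 44 replicates left out. With at least 5 counts required in every sum, no member was left to test. Without the plate term, Ldha at 1 week was at 0.012 in place of −0.69, the summed level at 1 week was at 0.049 in place of −0.23, and 17 of the 42 member values that could be compared changed sign, among them 6 of the 15 that were over 1 SE from 0, the cause of which was not tested. The summed level at 3 days, −0.09, was at 0.017 with all common genes in the library size, 0.0099 without Gapdh and 0.11 as the mean of the log2 levels, and that at 4 weeks, 0.17, was at −0.057 with at least 10 cells per sum. Under the other alternatives 1 to 5 member values changed sign, none of them over 1 SE from 0, and with 1 replicate left out 0 to 4 did, of which 1 was over 1 SE, Gpi1 at 9 weeks, at 0.12 without M8. Leaving out 1 replicate at a time gave −0.70 to −0.41 for Hk2 at 3 days, −0.86 to −0.21 for Aldoa and −0.92 to −0.51 for Ldha at 1 week, and −0.58 to −0.30 for Gapdh at 16 weeks. For the summed level it gave −0.14 to 0.12 at 1 day, −0.31 to 0.13 at 3 days, −0.36 to −0.10 at 1 week, −0.06 to 0.40 at 4 weeks, −0.26 to −0.18 at 9 weeks and −0.20 to 0.00054 at 16 weeks. The share of cells with a member UMI moves with depth by construction. Thinned to 1000 UMIs it was 67.7% on control diet, 64.6% at 1 day, 61.2% at 3 days, 67.4% at 1 week, 62.5% at 4 weeks, 74.4% at 9 weeks and 68.8% at 16 weeks. Without thinning it was 93.6% on control diet, 88.8% at 1 day, 93.4% at 3 days, 93.0% at 1 week, 91.4% at 4 weeks, 97.6% at 9 weeks and 92.2% at 16 weeks. A sum held 22768 to 219146 transcripts, so the lower members rested on few UMIs, and diet lengths shared few replicates with control on the same plate.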
